A study of Homo sapiens with 18 samples.

Results

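Wide peaks are the minority of TOP2A and TOP2B peaks that extended well past the standard width of their own list. In the human myeloid leukaemia line KG-1 the 8 MACS lists of the etoposide experiment held 1272143 peaks on chromosomes 1 to 22 and X. Wide peaks were chosen by width alone: a peak was taken as wide when it was over 2 times as wide as the narrowest peak of its list, and 66321 peaks (5.21%) met this rule. The other 1205822 peaks of the same lists served for comparison, and the 12 lists of the series held 1399117 peaks on these chromosomes. The rule used the width of the peak call, so the widths, scores and sites inside the peaks are given below as description, with no test. It did not use the treatment label. The share of wide peaks was compared between treatments, at cut-offs that differed between lists.

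Chromatin was crosslinked and immunoprecipitated with an antibody to TOP2A or to TOP2B, and each library was sequenced and called on its own. The labels give 5 µg of the TOP2A or 4 µg of the TOP2B antibody, crosslinking in 1% formaldehyde for 10 min and pooled immunoprecipitates, so the enzymes were read with different antibodies and their levels are not compared. The etoposide experiment has 4 groups of 2 libraries: each antibody in cells given the methanol vehicle for 1 h (0 µM drug), and each antibody in cells given 100 µM etoposide for 1 h. The mitoxantrone experiment, with 1 untreated library and 1 library given 0.5 µM mitoxantrone (1 h) per antibody, was used only to look for shared regions. A library is named below by antibody, treatment and replicate number, as in TOP2A etoposide 1. The labels do not say that replicates came from separate cultures, so the spread behind each p-value is that of these samples alone and may be technical.

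TOP2A and TOP2B are the type II DNA topoisomerases of human cells: they cut both strands of one DNA duplex, pass another through and reseal the break. TOP2A is made mainly in dividing cells and is known for untangling sister chromosomes, with a recognised role at centromeres, while TOP2B is made in dividing and resting cells and is linked to transcription. Etoposide is a TOP2 poison that holds the enzyme on the DNA it has cut, and mitoxantrone is a poison of another chemical class.

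Both replicate 1 libraries with etoposide stood apart in several measures. Several results are given with and without them. Others, such as the regions wide in more than 1 library, are given only with them. The lists of both libraries were the shortest, with 35932 peaks in TOP2A etoposide 1 and 69773 in TOP2B etoposide 1. The other 6 lists held 102432 to 294749 peaks. Read depth is not given in the sources used here, and precision is limited by the number of peaks in each list.

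Wide peaks were few in every library and took up more than their share of the covered bases. TOP2A vehicle 1 held 9270 (4.32% of its peaks) and TOP2A vehicle 2 held 18106 (7.33%). TOP2A etoposide 1 held 919 (2.56%) and TOP2A etoposide 2 held 11461 (5.94%). TOP2B vehicle 1 held 4969 (4.33%) and TOP2B vehicle 2 held 16806 (5.70%), while TOP2B etoposide 1 held 2227 (3.19%) and TOP2B etoposide 2 held 2563 (2.50%). The 3 lowest shares all belonged to etoposide libraries, while TOP2A etoposide 2 lay among the vehicle libraries. The same 3 lists also had the lowest cut-offs in bp, because their narrowest peaks were the shortest. Wide peaks covered 6.07% to 15.7% of the bases in peaks (median 10.3%), or 0.319 to 5.95 Mb per list.

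**Figure D1:**
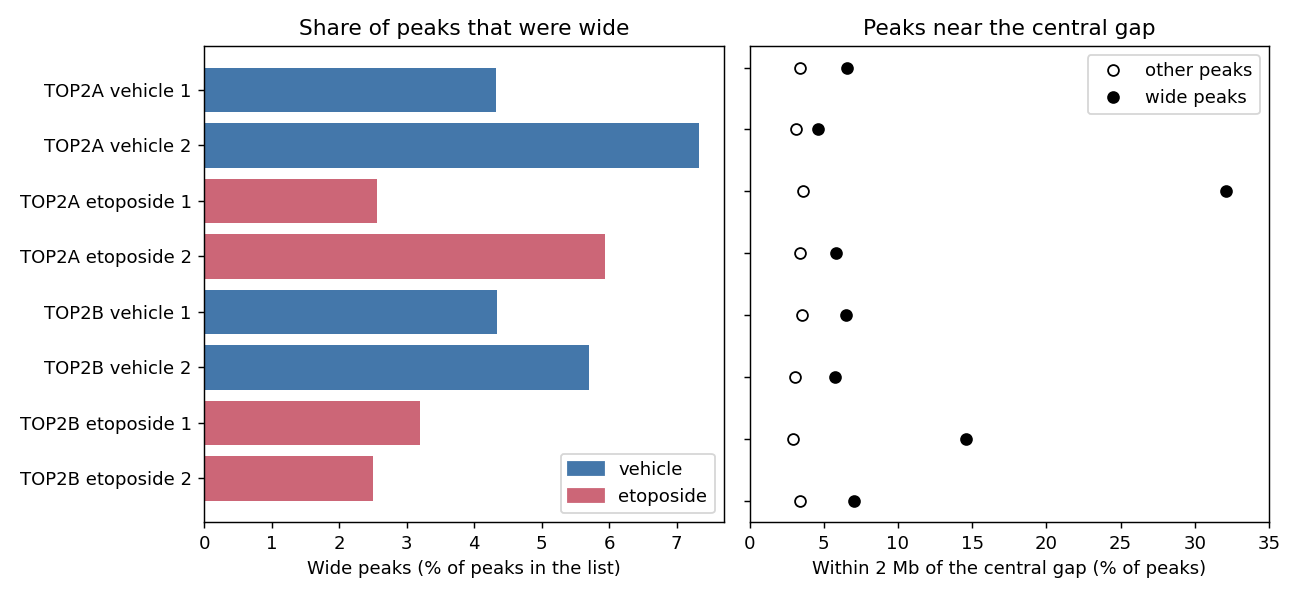
Left, the percentage of peaks in each of the 8 lists that were wide, with bars from 0 and colours for the treatment. Right, the percentage of wide peaks (filled points) and of other peaks (open points) within 2 Mb of the central gap of their chromosome, where wide peaks lie to the right of other peaks in 8 of 8 lists and TOP2A etoposide 1 (32.1%) and TOP2B etoposide 1 (14.6%) lie farthest out.

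The share of wide peaks differed between etoposide and vehicle by a mean of -1.58 percentage points for TOP2A (exact permutation p = 0.667, n = 2 each). For TOP2B the difference was -2.17 points, with both etoposide libraries below both vehicle libraries (exact permutation p = 0.33, the smallest that 2 against 2 can give). Over both antibodies it was -1.87 points, with 4 libraries per treatment, and did not pass the test (two-sided exact permutation p = 0.143). Within replicate number the etoposide library had the lower share in 4 of 4 pairs. At a threshold of 3 times the smallest width the TOP2A difference was 0.0201 points and the TOP2B difference -0.0800 points. Without TOP2A etoposide 1 the TOP2A difference turned to 0.114 points. The permutation tests compared shares at cut-offs that differed between lists, so they cannot separate the treatment from the cut-off. With 1 cut-off of 250 bp for all lists the difference was -1.67 points for TOP2A and -3.09 points for TOP2B. The etoposide list was also the shorter of the 2 in 4 of 4 pairs, and the part of list length in the result was not tested.

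Most wide peaks were only a little over the threshold. Their median width was 255 to 318 bp, where the narrowest peaks of the lists measured 98 to 128 bp. Peaks of 2 to 3 times the smallest width made up 81.3% to 92.0% of the wide peaks in 7 lists and 67.9% in TOP2A etoposide 1. Peaks over 5 times the smallest width made up 13.3% of the wide peaks in TOP2A etoposide 1, 7.14% in TOP2B etoposide 1 and at most 1.25% in the others. In TOP2A vehicle 2, 2634 peaks measured 1.9 to 2 times the smallest width and 2172 measured 2 to 2.1 times, with median score percentiles within the list of 24.4 just outside the threshold and 21.9 just inside. In TOP2A etoposide 1 the numbers were 107 and 70, with percentiles of 40.7 and 30.1. In TOP2B etoposide 1 they were 324 and 239, with percentiles of 45.9 and 35.9. The percentile was lower just inside than just outside in 8 of 8 lists, and the number of peaks was lower in 7 of 8.

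Wide peaks scored low. The MACS score is the authors' own value for each peak, and it was used mainly to rank peaks within a list. A score of at least 100 also served as an alternative cut-off in all lists. The median score of wide peaks was below that of the other peaks in 8 of 8 lists, from 78.96 against 84.51 in TOP2B etoposide 1 to 457 against 1326 in TOP2B vehicle 1. On a scale where 100 is the top of the list, the median wide peak stood at 16.4 to 21.7 in 6 libraries, at 34.2 in TOP2B etoposide 1 and at 37.3 in TOP2A etoposide 1. Of the top 1% of scores, 0.194% to 0.851% were wide peaks in 6 lists, against 7.20% in TOP2A etoposide 1 and 9.88% in TOP2B etoposide 1. In these 2 libraries the widest peaks were also among the best scored.

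**Figure D2:**
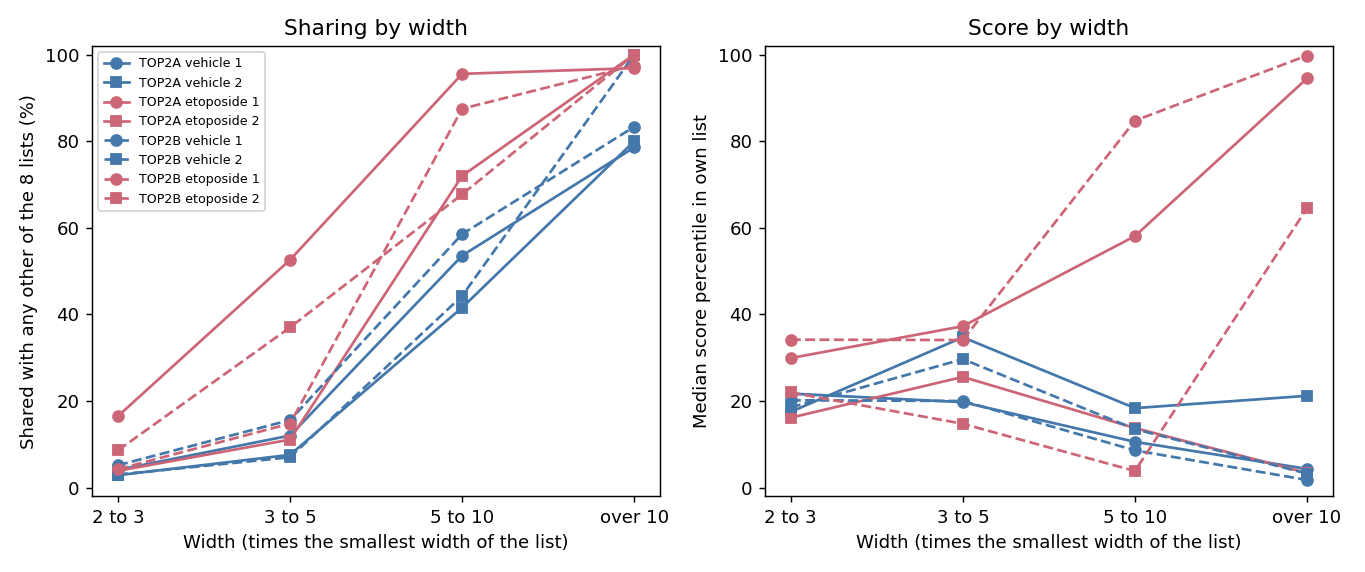
Wide peaks split by width, as a multiple of the smallest width of the list, for each of the 8 libraries. Left, the percentage of each class with a wide peak of any of the other 7 lists, which climbs with width in all 8. A longer peak meets an overlap more easily, and the part of length in this climb was not tested. Right, the median score percentile within the list. For the widest class it reaches 94.5 in TOP2A etoposide 1 and 99.8 in TOP2B etoposide 1. It is 64.5 in TOP2B etoposide 2, where that class holds 1 peak.

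Nearly every wide peak held a site of the second caller, SISSRs, which looks for the point where reads of the 2 strands meet. A site lay in 94.5% to 99.6% of wide peaks and in 95.3% to 99.7% of other peaks. Wide peaks with 2 or more sites numbered 10 to 750 per list (0.39% to 4.14%), and at most 0.00131% of other peaks had as many. The largest number of sites in a wide peak was 6, in TOP2B etoposide 1. The median site measured 140 to 260 bp inside wide peaks and 100 to 140 bp inside other peaks, and its median tag count was 42 to 193 and 39 to 185. Wide peaks also lay in closer company: 10.1% to 27.9% had another peak within 1 kb, against 3.16% to 19.1% of other peaks, and the share was higher for wide peaks in 8 of 8 lists.

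Position on the chromosome is independent of the width rule. The longest stretch of each chromosome with no peak in any of the 12 lists was taken as its central gap. It measured 3 to 21.05 Mb. On chromosomes 13, 14, 15, 21 and 22 it lay at the start, and all their peaks were counted to the long arm. Whether this stretch is the centromere was not checked for each chromosome. In hg19 the centromere is largely left as a gap, and its flanks hold satellite repeats.

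Wide peaks were found near the central gap more often than other peaks in every library. Within 2 Mb of the gap lay 6.57% and 4.58% of wide peaks in TOP2A vehicle 1 and 2, and 6.48% and 5.74% in TOP2B vehicle 1 and 2. In the etoposide libraries the shares were 32.1% and 5.83% for TOP2A 1 and 2, and 14.6% and 7.02% for TOP2B 1 and 2. Other peaks lay there in 2.90% to 3.59% of cases, and their range did not overlap that of the wide peaks. The mean difference within a library was 7.06 percentage points (SD 9.24, n = 8 libraries, higher in 8 of 8; two-sided exact sign-flip permutation p = 0.0078, the smallest that 8 libraries can give). Without the 2 etoposide libraries of replicate 1 it was 2.71 points (SD 0.74, 6 of 6 libraries; exact sign-flip permutation p = 0.0312). Libraries of 1 treatment and replicate number may share chromatin, which the test does not take into account.

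The excess was steepest at the very edge of the gap. Within 0.1 Mb of it 16.8% to 24.9% of peaks were wide in 6 libraries, 58.1% in TOP2A etoposide 1 (207 of 356) and 56.3% in TOP2B etoposide 1 (170 of 302). Beyond 10 Mb the shares were 1.83% to 7.17%. From 0.1 Mb outwards no step of the profile was above 15.5% in any of the 8 libraries. In TOP2A etoposide 1 and TOP2B etoposide 1, 49.3% and 33.6% of all bases in wide peaks lay within 2 Mb of a gap, against 5.16% to 8.35% in the other 6.

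**Figure D3:**
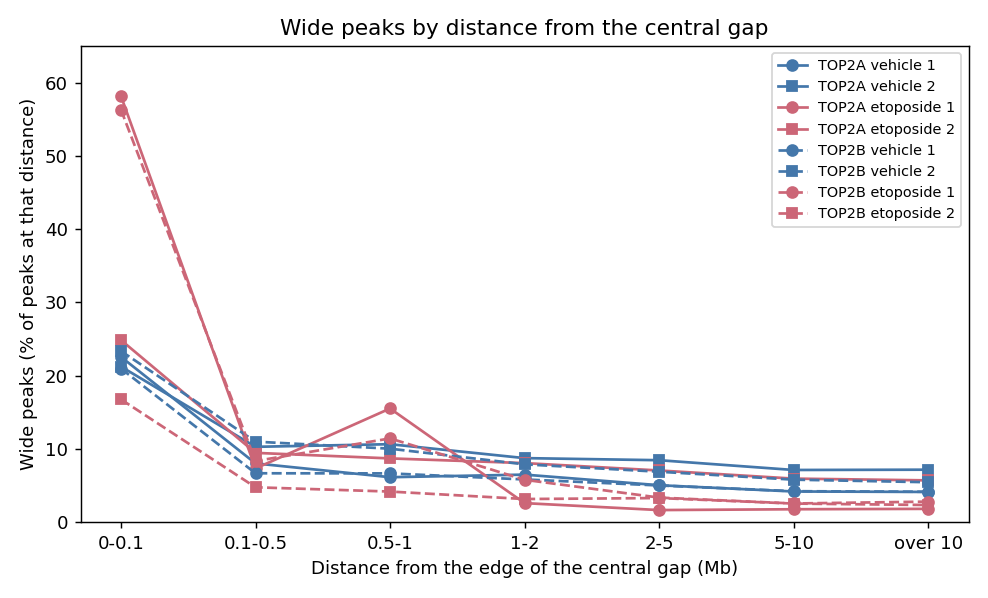
The percentage of peaks that were wide, by distance of the peak midpoint from the edge of the central gap, with 1 line per library (colour for treatment, solid for TOP2A, dashed for TOP2B, circles for replicate 1, squares for replicate 2). All 8 lines are highest within 0.1 Mb of the gap, at 16.8% to 58.1%.

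The score of near-gap wide peaks also separated these 2 libraries from the rest. The median score percentile of wide peaks within 2 Mb of the gap was 43.4 in TOP2A etoposide 1 and 73.2 in TOP2B etoposide 1. In the other 6 libraries it was 5.62 to 14.1, below that of wide peaks elsewhere (16.5 to 22). Of peaks 5 to 10 times the smallest width, 94.4% in TOP2A etoposide 1 and 96.2% in TOP2B etoposide 1 lay near the gap, and 27.0% to 41.9% in the others.

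The near-gap share of wide peaks was 14.9% (SD 12.1, n = 4) with etoposide and 5.84% (SD 0.92, n = 4) with the vehicle. The difference of 9.04 points did not pass (two-sided exact permutation p = 0.114), and this comparison was added after seeing the data. The share was higher with etoposide in 4 of 4 pairs of 1 antibody and replicate number, and TOP2A etoposide 2 lay below 2 of the vehicle libraries. In replicate 2 alone the difference was 1.26 points. The near-gap share of other peaks was 3.32% with etoposide and 3.30% with the vehicle.

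The near-gap wide peaks were unevenly spread over the chromosomes. In TOP2A etoposide 1 the 295 such peaks were led by chromosomes 4 (51), 8 (42), 10 (38), 16 (36) and 2 (29). In TOP2B etoposide 1 the 325 were led by the same chromosomes 4 (56), 10 (42), 8 (36), 16 (29) and 2 (28). In TOP2A vehicle 1, by contrast, chromosomes 7 and 8 came first with 64 each of 609. Whether these orders differ was not tested.

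Chromosome ends held a smaller excess. Within 2 Mb of the first or last peak of a chromosome lay 4.27% to 6.13% of wide peaks and 3.37% to 4.09% of other peaks. The mean difference was 1.52 points (SD 0.46, higher in 8 of 8 libraries; exact sign-flip permutation p = 0.0078). Because 5 chromosomes begin at their central gap, their starts counted as both landmarks, and with the long-arm ends alone on those chromosomes it was 1.05 points (exact sign-flip permutation p = 0.0078).

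Across chromosome arms the long arm of chromosome 8 stood out. It held 10.02% to 14.2% of wide peaks and 7.74% to 8.44% of other peaks, ranges that did not overlap. For each arm the share of wide peaks was divided by the share of other peaks within each library, and the mean log2 ratio was tested with limma. Of 41 arms 5 passed an adjusted p of 0.05 (12.2% of those tested), 2 higher (4.88%) and 3 lower (7.32%). Arms 8q (log2 ratio 0.54, limma adjusted p = 0.00035, higher in 8 of 8 libraries) and 8p (0.38, limma adjusted p = 0.0405, 7 of 8) held more wide peaks. Arms 3p (-0.27), 4q (-0.27) and 12q (-0.26) held fewer in 8 of 8 libraries (limma adjusted p = 0.035, 0.0394 and 0.035).

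**Figure D4:**
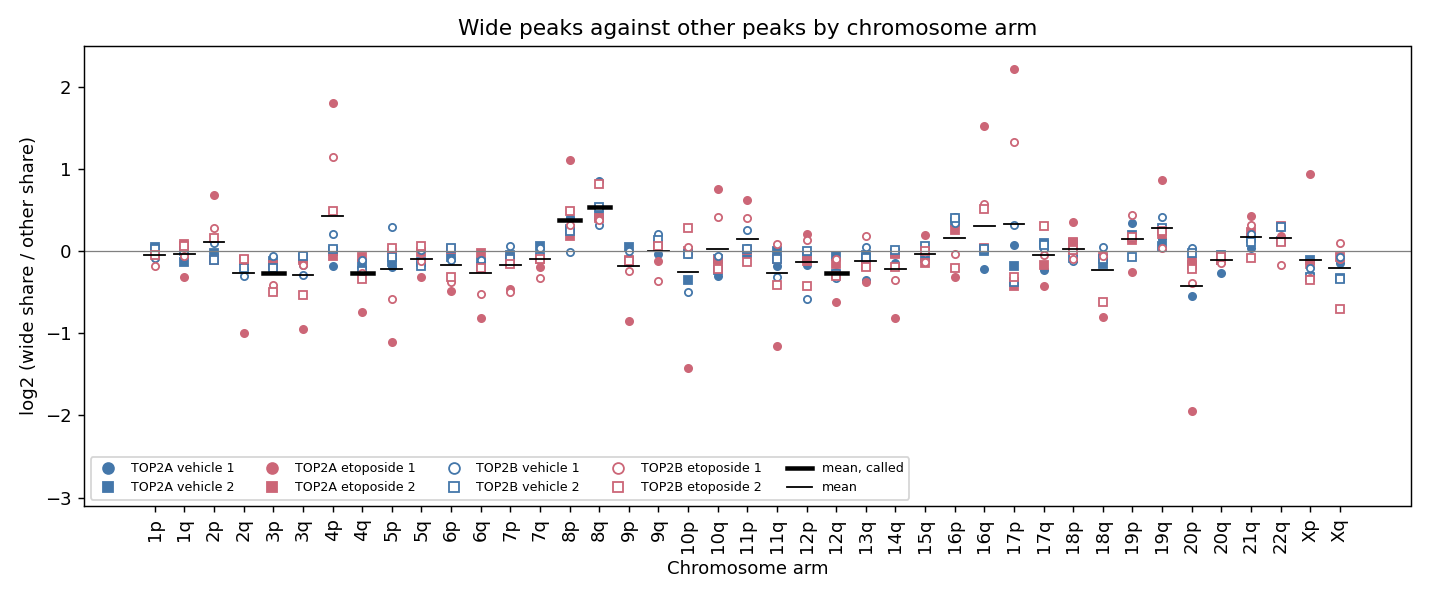
The log2 ratio of the share of wide peaks to the share of other peaks in each of 41 chromosome arms, with 1 point per library (key in the panel) and a bar for the mean, thick where limma called the arm. Arm 8q lies above 0 in all 8 libraries, at 0.32 to 0.85, and TOP2A etoposide 1 gives many of the outermost points.

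How many arms were called depended on the libraries and on the model. When the replicate number was a block, 3 passed (8q, 3p and 12q), and at a score of at least 100 only 8q did. With limma no arm passed with replicate 1 alone (10 at an unadjusted p under 0.05), and 14 passed with replicate 2 alone. Without the 2 etoposide libraries of replicate 1, 18 arms passed, 6 higher and 12 lower, among them the 5 above. Arm 8q kept its direction in every fit, with log2 ratios from 0.52 to 0.74, and missed the threshold only with replicate 1 alone (0.52, limma adjusted p = 0.0564). With the whole of chromosome 8 the wide share was 1.20 to 1.71 times the other share in the 8 libraries. This was not particular to the etoposide experiment. For broad peaks of the mitoxantrone experiment the ratio was 1.55 in TOP2A untreated, 2.63 in TOP2B untreated and 6.12 in TOP2A mitoxantrone. It has no value in TOP2B mitoxantrone, where no other peak lay on chromosome 8. Chromosome 8 is also dense in peaks of any width, with 9.56% to 10.3% of other peaks. Across bins of 5 Mb, peak number and the percentage of peaks that were wide correlated weakly (Spearman's rho 0.00056 to 0.21 over 581 to 597 bins that share a library). The densest 10% of bins still had a higher percentage than the median bin in every library. It was 4.72% against 1.56% in TOP2A etoposide 1 and 3.32% against 2.11% in TOP2B etoposide 2. The sparsest 10% also lay above the median bin in every library, a shape that a rank correlation can miss. The part of peak density in the excess on chromosome 8 was not tested.

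At finer scale the called positions included bins on chromosome 8, beside a central gap and at chromosome ends. Of 575 bins of 5 Mb, 26 passed with limma (4.52% of those tested), and all 26 held more wide peaks than their share of other peaks. The largest ratio was on chromosome 2 from 90 to 95 Mb, where wide peaks were 5.08-fold over-represented (log2 ratio 2.34, limma adjusted p = 0.016, 8 of 8 libraries). It was followed by chromosome X from 60 to 65 Mb (3.72-fold), chromosome 1 from 120 to 125 Mb (3.09-fold), chromosome 5 from 45 to 50 Mb (3.09-fold) and chromosome 21 from 10 to 15 Mb (2.95-fold). Each was higher in 8 of 8 libraries (limma adjusted p = 0.0034, 0.0043, 3.3e-05 and 1.0e-06), and the first 4 of these 5 bins border or contain a central gap. Chromosome 8 gave 11 of the 26 bins, and bins at chromosome ends (4 from 190 Mb, 7 from 155 Mb and 16 from 0 Mb) were also among them. How many of the 575 tested bins lay in each of these places is not given. The counts are therefore not read as an excess of calls there. Without the etoposide libraries of replicate 1, 51 bins passed, 48 higher and 3 lower, and 25 of the 26 were among them.

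Between etoposide and vehicle few arms differed in their share of wide peaks, and none did so in every fit. For TOP2A, 0 of 41 arms passed between etoposide and vehicle (0% of those tested; 0 also at an unadjusted p under 0.05, limma). For TOP2B, 2 of 41 passed (4.88%), 4p (log2 0.70, limma adjusted p = 0.0415) and 18p (0.27, limma adjusted p = 0.0297), both higher with etoposide. The 18p call rests on small counts, with 13 and 14 wide peaks in TOP2B etoposide 1 and 2. TOP2B vehicle 1 and 2 had 23 and 83 there. Neither arm passed without peaks within 2 Mb of the gap, or with all 8 libraries in 1 fit. Without TOP2B etoposide 1 neither passed, and 1 other arm did, lower with etoposide; leaving out each TOP2B library in turn gave 0 to 9 calls. When the replicate number was a block, 0 passed (4 at an unadjusted p under 0.05, limma). Leaving out TOP2A etoposide 2, so that the lone TOP2A etoposide 1 stood against both vehicle libraries and was assumed to vary like them, gave 25 calls.

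Wide peaks were seldom shared, but more often than other peaks. Overlap was counted at 1 bp or more with a wide peak of the second list. With the other antibody, at the same treatment and replicate number, 26.3% of the wide peaks of TOP2A etoposide 1 were shared (242 of 919), and 7.90% in the reverse direction (176 of 2227). In the other 6 libraries the share was 1.01% to 4.72%. Other peaks overlapped a wide peak of the second list in 0.0503% to 0.562% of cases. The mean difference was 5.57 points (SD 8.64, 8 of 8 libraries; exact sign-flip permutation p = 0.0078). Each library and its partner were set against each other, so the 8 differences form 4 reciprocal pairs and are not independent. The tests here do not take this into account, and sign flips of 4 pairs cannot give an exact permutation p below 0.125. Without the etoposide libraries of replicate 1 the mean difference was 1.76 points (6 of 6 libraries; exact sign-flip permutation p = 0.0312), and without peaks within 2 Mb of a gap it was 1.37 points (8 of 8 libraries; exact sign-flip permutation p = 0.0078).

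Sharing between replicates and between treatments is given next, and the kinds of sharing were not tested against each other. Here too the 8 libraries form 4 reciprocal pairs, which the tests below do not take into account. With the other replicate of the group 0.131% to 1.96% of wide peaks were shared, a mean of 0.88 points above other peaks (SD 0.53, 8 of 8 libraries; exact sign-flip permutation p = 0.0078). Between etoposide and vehicle of 1 antibody and replicate number it was 0.274% to 5.22%, a mean of 1.46 points above other peaks (SD 1.496, 8 of 8 libraries; exact sign-flip permutation p = 0.0078). Leaving out the etoposide libraries of replicate 1 also as targets left 4 libraries for each, with 0.70 and 0.84 points, where 0.125 is the smallest exact permutation p. Wide and other peaks were set against the same targets, but wide peaks are longer by the rule and so meet a target more easily. Both lists were therefore also cut to windows of 100 bp about the midpoint of each peak. The differences were then 2.15 points for the other antibody, 0.35 for the other replicate and 0.82 for the other treatment (8 of 8 libraries; exact sign-flip permutation p = 0.0078 each).

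**Figure D5:**
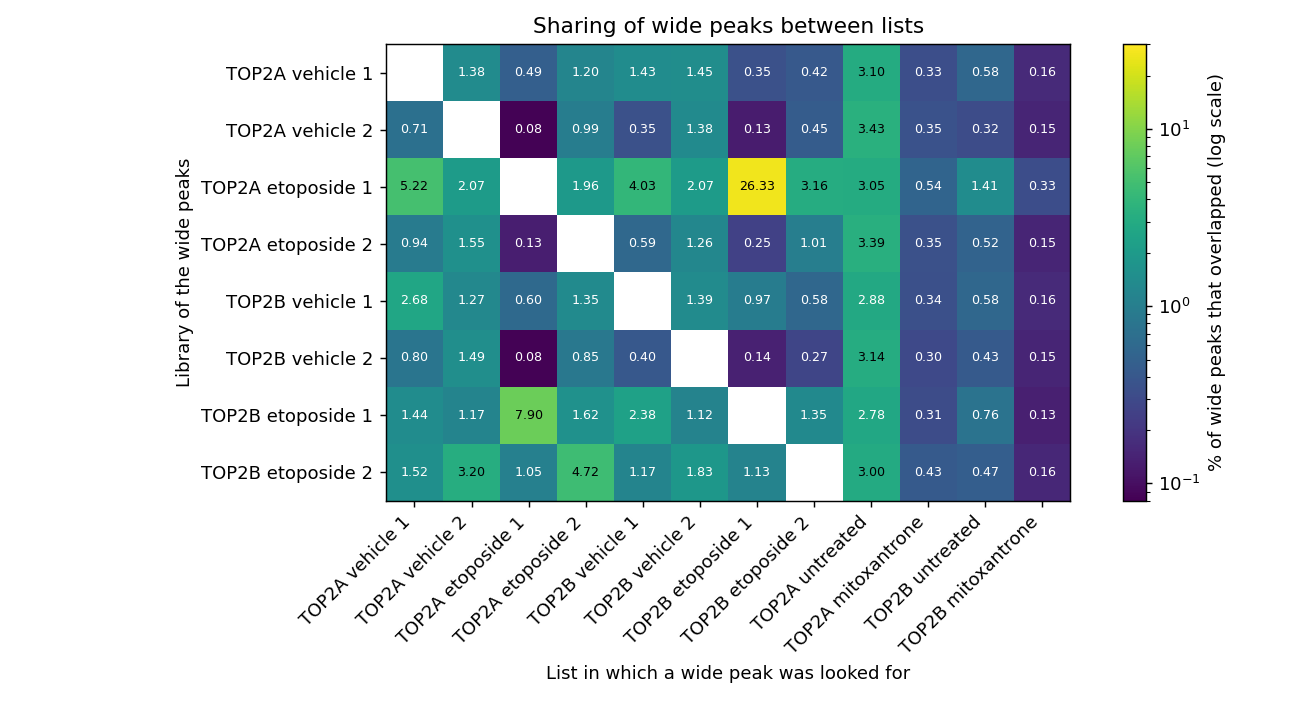
The percentage of the wide peaks of each library (rows) that overlapped a wide peak of another list (columns), on a log colour scale. The highest value, 26.33%, joins TOP2A etoposide 1 with TOP2B etoposide 1, and the column of the TOP2A untreated list, which has 85499 broad peaks, lies between 2.78% and 3.43% for all 8 libraries.

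The mitoxantrone experiment had a different peak shape, and its broad peaks met few of the wide peaks. By the same rule 78.1% of the peaks were broad in the TOP2A untreated list, 83.4% in TOP2B untreated, 79.6% in TOP2A mitoxantrone and 97.9% in TOP2B mitoxantrone. Vehicle libraries were set against the untreated list of their antibody, and etoposide libraries against the mitoxantrone list. The shares were 3.10% and 3.43% for TOP2A vehicle 1 and 2, 0.584% and 0.428% for TOP2B vehicle, 0.544% and 0.349% for TOP2A etoposide, and 0.135% and 0.156% for TOP2B etoposide. They followed the number of broad peaks in the target, which was 85499, 7725, 6039 and 687. The excess over other peaks was 0.36 points (SD 0.33, 8 of 8 libraries; exact sign-flip permutation p = 0.0078). It was 0.30 points without the chromosome 6 segment described below (7 of 8; exact sign-flip permutation p = 0.0234) and 0.0976 points with windows of 100 bp. In the other direction 2.37%, 3.25%, 3.30% and 10.2% of the broad peaks of the TOP2A untreated, TOP2B untreated, TOP2A mitoxantrone and TOP2B mitoxantrone lists held a wide peak of any of the 8 libraries. Of the peaks of these lists that were not broad, 1.30%, 1.76%, 1.49% and 0% did. The 0% rests on few peaks, since 687 of the 702 peaks of the TOP2B mitoxantrone list were broad. Broad peaks are longer by the rule, with a median of 1148 bp in that list and 474 to 582 bp in the others. A longer peak meets an overlap of 1 bp more easily, and the part of length in these shares was not tested. The lists have 1 library per group, so the shares in this direction have no replicate check.

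Merging the wide peaks of the 8 lists gave 64381 regions, of which 62812 (97.6%) were wide in 1 library only. A further 1414 were wide in 2 libraries, 115 in 3 and 40 in 4 or more. The same merging is not given for other peaks. From 1 of the 8 lists to another, 0.364% to 5.12% of other peaks overlapped a peak of any width. For wide peaks it was 0.774% to 30.0%. Low recurrence is therefore not particular to wide peaks. Of the regions wide in 1, 2, 3 and 4 or more libraries, 4.97%, 22.4%, 59.1% and 57.5% were within 2 Mb of a gap. These shares include both etoposide libraries of replicate 1 and were not computed without them. Of the 1414 pairs, 227 joined TOP2A vehicle 2 with TOP2B vehicle 2, 144 joined TOP2A etoposide 2 with TOP2A vehicle 2, 124 joined TOP2A etoposide 2 with TOP2B vehicle 2, and 110 joined TOP2A etoposide 1 with TOP2B etoposide 1.

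Only 2 regions were wide in all 8 libraries, and both lie in 1 segment of chromosome 6, 34.1 Mb from the central gap. Positions are 1-based on hg19, and no gene is assigned because no annotation of that build was used. At chr6:24650945-24651605 the peak measured 350 to 640 bp and had a score of 3100 in each of the 8 libraries. At chr6:24666717-24667129 it measured 337 to 413 bp, with scores of 783 to 3100. Their SISSRs sites held 1786 to 43565 and 1042 to 18085 tags per library. In contrast to most wide peaks, these stood at or above the 92.3 and 72.5 score percentiles of their lists. The score of 3100 stood at the 92.3 percentile in TOP2B vehicle 1 and at 99.996 in TOP2B etoposide 1. Equal scores are therefore not read as equal strength. Both regions were also broad in the TOP2B untreated, TOP2A mitoxantrone and TOP2B mitoxantrone lists. The same segment gave chr6:24658659-24659018 and chr6:24653159-24653434, each wide in 5 libraries and present as a peak in all 8.

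Of the other 6 regions among the 10 most often wide, 5 lay within 2 Mb of a gap, and the lowest score percentile of each of the 6 was between 0.31 and 3.60. At chr1:121354754-121357046, 0.13 Mb from the gap, 7 libraries had a wide peak of 241 to 1075 bp, and the score percentile ran from 1.10 in TOP2A vehicle 1 to 57.5 in TOP2B etoposide 1. At chr16:46432021-46435931, 0.048 Mb from the gap, 6 libraries had one, up to 3868 bp wide in TOP2A vehicle 2. There the score percentile was 0.31 in TOP2B vehicle 1, 95.9 in TOP2A etoposide 1 and 99.9 in TOP2B etoposide 1. The neighbouring chr16:46425487-46430058 was wide in 5 libraries and reached 4572 bp in TOP2A etoposide 2, where it was a single peak with 5 SISSRs sites. Its score percentile was 3.12 in TOP2B vehicle 1 and 40.5 to 95.4 in the other 4 libraries. The remaining 3 were chr16:33973650-33975938 (6 libraries), chr15:20545669-20547102 (5 libraries) and chr2:87641673-87642256 (5 libraries), at 1.31, 0.55 and 4.68 Mb from a gap.

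The widest peak of each of the 8 lists lay within 0.57 Mb of a central gap. The widest of all, 5932 bp at chr16:46403333-46409264 in TOP2B etoposide 1, held 6 SISSRs sites with 3479 tags and a score of 3100. The widest of TOP2A etoposide 1 was 3572 bp at chr6:58776183-58779754, with 3 sites, 1850 tags and a score of 3100. In TOP2A vehicle 1 it was 2833 bp at chr4:49093265-49096097, with 3273 tags but a score of 71.8, at the 1.18 percentile of its list. In TOP2A vehicle 2 it was 5433 bp at chr18:18514943-18520375, and no other of the 8 libraries had a wide peak there. Of the 8, 7 were also wide in at least 1 other library.

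Few regions were wide in both replicates of a group and without any peak in the other treatment. For TOP2A 131 regions were wide in both vehicle libraries and 93 of them had no etoposide peak, while 15 were wide in both etoposide libraries and 9 of them had no vehicle peak. For TOP2B 69 vehicle regions gave 50 without a peak of the other treatment, and 28 etoposide regions gave 18. Having no peak in the other treatment was the usual case: only 0.812% to 23.6% of the wide peaks of a library overlapped a peak of any width in 1 library of the other treatment and same antibody. The counts are therefore not read as treatment-specific, and the vehicle lists also held more wide peaks. The best scored of the TOP2A vehicle regions was chr15:94208627-94209017, with scores of 3100 and 1321 in the 2 libraries, at 74.2 Mb from the gap. The best scored of the TOP2A etoposide regions was chr21:11186405-11187101, which was also wide in both TOP2B etoposide libraries and in TOP2B vehicle 1. The best scored of the TOP2B etoposide regions was chr4:49107105-49108562, 0.55 Mb from the gap, at 1452 bp in replicate 1 and 605 bp in replicate 2. No other of the 8 libraries had a MACS peak there, yet each of them had SISSRs sites in the region, with 300 to 2209 tags. A region without a MACS peak could thus still hold SISSRs tags. Of the regions matched in the mitoxantrone experiment, chr14:72141256-72141496 was broad in all 4 of its lists but wide in TOP2A vehicle 1 only. Next came the 2 chromosome 6 regions, chr16:1075276-1075599 and chr22:18717853-18718434, each broad in 3 of the 4 lists.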

How the data were processed

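The deposited MACS lists give a score per peak. The deposited SISSRs lists give, per site, a tag count, a fold and a p-value. They have no header, so these units were judged from the values. Per the submitters' processing notes, MACS 1.4 was used with Bowtie2 2.2.5 and bedtools 2.26.0, on hg19. How the callers were set, and with which input, is not given in the sources used here and could change peak width. Each library was called separately, and the 6 input samples were not used here.

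Widths, overlaps (at least 1 bp), distances of midpoints from gaps and counts per arm or bin were computed in Python 3.11.15 with numpy 2.4.6, pandas 2.3.3 and matplotlib 3.10.9. Within-library differences were compared by two-sided exact sign-flip tests, and treatments by exact permutation of libraries. The sign flips treated libraries as independent, although partners in the sharing tests of the etoposide experiment were set against each other. In all 10 exact tests were run, and after Benjamini-Hochberg adjustment the 6 with p = 0.0078 (exact permutation) had 0.013. Arms and bins with a mean of at least 5 wide peaks were tested in R 4.3.3 by limma 3.58.1, with its trend and robust options, after adding 0.5 peaks. The overlap and bin steps were tested on simulated data.

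Named regions were the 10 wide in most libraries, the widest of each list, the 3 leading ones of each treatment class, the 5 most matched in the mitoxantrone experiment, and the called arms and 5 largest bins. The wide peaks, lists and tests were chosen with earlier results of these data known. The alternatives were other widths (1.5 or 3 times the smallest, or 250 bp), distances of 1 or 5 Mb, bins of 2 Mb, a score of at least 100, 2 peaks as pseudocount, other overlap rules, replicates left out and the replicate number as a block.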

Additional observations from a re-analysis of the deposited data

Results flagged for a closer look

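TOP2A etoposide 1 lay far from the other 7 libraries in 3 of the 6 within-library differences between wide and other peaks. Its excess of wide peaks near the central gap was 28.5 percentage points, where the next library, TOP2B etoposide 1, had 11.7 and the lowest 1.45. Its excess of sharing with the other antibody was 26.1 points, against 7.85 in TOP2B etoposide 1 and 0.81 in the lowest library. Its excess of sharing with the other treatment was 4.81 points, against 2.23 in the next library and 0.20 in the lowest. Chance flags about 1 in 20 such groups, and the 3 differences come from the same 919 wide peaks.

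The contigs outside chromosomes 1 to 22 and X, which the comparisons did not use, held 987 wide peaks among 5699 peaks over the 8 lists (17.3%). They are given because no comparison used them, and no test was made. Per library 14.1% to 15.9% of contig peaks were wide in 6 lists, 33.4% in TOP2A etoposide 1 and 39.5% in TOP2B etoposide 1, against 2.50% to 7.33% on the chromosomes.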

How the results depend on the processing

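For the comparisons 150 alternative values were computed, and 111 left the call and direction as they were (counts within 1.5 times, untested values within 1 SD). The 111 include replicate blocks of the exact tests, which repeat the same mean and could not have changed it. They also include a control, other peaks in place of wide peaks near the gap, with 0.0145 points between treatments. Settings too small to pass, for results that had not passed, are counted as well. The number is therefore not read as a measure of how firm the results are. For the changes listed here the cause was not tested. Leaving out each replicate number gave 1.73 to 9.41 points for sharing with the other antibody, 0.51 to 1.24 with the other replicate, 0.84 to 2.08 with the other treatment, 0.34 to 0.38 with the mitoxantrone experiment, 2.54 to 11.6 near the gap and 1.46 to 1.58 near ends; 4 libraries cannot pass 0.05. The same limit holds without the etoposide libraries of replicate 1 for the other replicate (0.70) and the other treatment (0.84), settings chosen after seeing the data, as were those without near-gap peaks. In the wide share, 3 times the smallest width gave 0.0201 (TOP2A) and -0.0800 (TOP2B), 250 bp gave -3.09 and covered bases -4.10 (TOP2B), and leaving out each library gave -3.27 to 0.114 (TOP2A) and -2.85 to -1.49 (TOP2B). Called arms numbered 8 against peaks of the smallest width, 15 at 3 times the smallest width, 1 at a score of at least 100, 10 with 2 peaks as pseudocount, 12 without near-gap peaks, 18 without the etoposide libraries of replicate 1, and 0 to 14 with a replicate left out. Called bins numbered 44 at 2 Mb and 51 without those libraries. For TOP2A arms with etoposide, leaving out each library gave 0 to 25 calls. For TOP2B arms it gave 0 to 9, and 0 passed with all 8 libraries in 1 fit, at 3 times the smallest width and without near-gap peaks.

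With the replicate number as a block, 3 arms were called in place of 5, and 0 TOP2B arms with etoposide in place of 2. A block cannot move a within-library mean here: near the gap it was 2.54 points in replicate 2 and 11.6 in replicate 1 (mean 7.06). Deviations of same-numbered libraries over 41 arms correlated at 0.118, 0.416, 0.380, 0.138 and 0.242 in 5 of 6 pairs of groups and at -0.0388 between TOP2A vehicle and TOP2B etoposide. The numbers were not taken as pairs because not every correlation was above 0.1, and the labels do not say what they share.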
